A study of Mus musculus with 5 samples.

Results

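The CKO type II neurons are the 152 cells, of 884 CKO cells and of 1954 cells in all, in which Dupd1 reached 1 unique molecular identifier (UMI, a tag that counts each captured RNA molecule once) per 10000 UMIs of the cell. Type II neurons are the small class of spiral ganglion neurons that contact outer hair cells. Dupd1, a dual specificity phosphatase known from muscle, marks them. The 119 control cells that passed the same Dupd1 threshold, of 1070 control cells, serve as the comparison.

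Spiral ganglion neurons are the primary auditory neurons, which link hair cells of the cochlea with the brainstem. Type I neurons make up most of the ganglion, contact inner hair cells and fall into types Ia, Ib and Ic. Type II neurons are thin, mostly unmyelinated neurons that each contact many outer hair cells and respond weakly to sound, and they express the intermediate filament peripherin (Prph) and, in part, tyrosine hydroxylase (Th). Runx1 is a Runt-domain transcription factor that shapes sensory neuron subtypes and is found in type I classes.

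All samples came from mouse cochlea at 30 to 33 days of age, with both sexes taken. The 2 control samples were bhlhb5-Cre/+; Ai14/+, and the 3 CKO samples were bhlhb5-Cre/+; Ai14/+; Runx1F/F, so all carried the Cre transgene and the tdTomato reporter and only the CKO samples carried floxed Runx1. Runx1 was to be removed before birth in neurons in which bhlhb5-Cre is active, and cells were sorted for tdTomato after collagenase and papain, so every cell had passed a gate on Cre activity. The floxed part of Runx1 is not given in the sources used here. Dupd1 cells were therefore compared between a genotype that lost Runx1 by design and one that did not, in a class that held almost no Runx1 RNA in either.

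The genotype of each cell is known and its sample is not. Each genotype was therefore 1 pool with no replicates, and no test between genotypes was made. All intervals are exact 95% intervals and cover counting error only. The cell barcodes run in 5 alphabetical stretches, one after another. Stretches 1, 3 and 4 hold CKO cells and stretches 2 and 5 control cells, and whether a stretch is a library was not known. Values per stretch are given to show their spread, not as replicates. CKO type II neurons held 4179752 UMIs, with a median of 27102 (12863 to 72765) and a median of 5871 genes per cell. Control type II neurons held 3056524 UMIs, with a median of 25326 per cell and 5806 genes. Cells without Dupd1 were deeper, at medians of 47482 UMIs in CKO and 39413.5 in control. One barcode occurred in both genotypes.

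Among CKO cells 17.2% were in the class (exact interval 14.8 to 19.8), against 11.1% of control cells (9.30 to 13.2). By stretch, the CKO shares were 16.3% in stretch 1 (58 cells), 19.1% in stretch 3 (71) and 14.6% in stretch 4 (23). The control shares were 14.9% in stretch 2 (72) and 7.99% in stretch 5 (47). Control stretch 2 thus lay between the CKO stretches, and control stretch 5 alone lay below them all. Sorting and the recovery of neurons can set such a share, and their part in it was not tested.

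The threshold fell in a gap of the Dupd1 values. The lowest members stood at 1.93, 2.35 and 2.64 UMIs per 10000, and the CKO cells just outside at 0.721, 0.599 and 0.207. Another 724 CKO cells had no Dupd1 UMI, and 8 had some below the threshold. In control the lowest cells inside were at 1.67 and 1.80 and the highest outside at 0.940 and 0.601. Within the members, Dupd1 ran from 1.93 through quartiles of 7.38, 14.4 and 22.1 to 65.0.

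**Figure D1:**
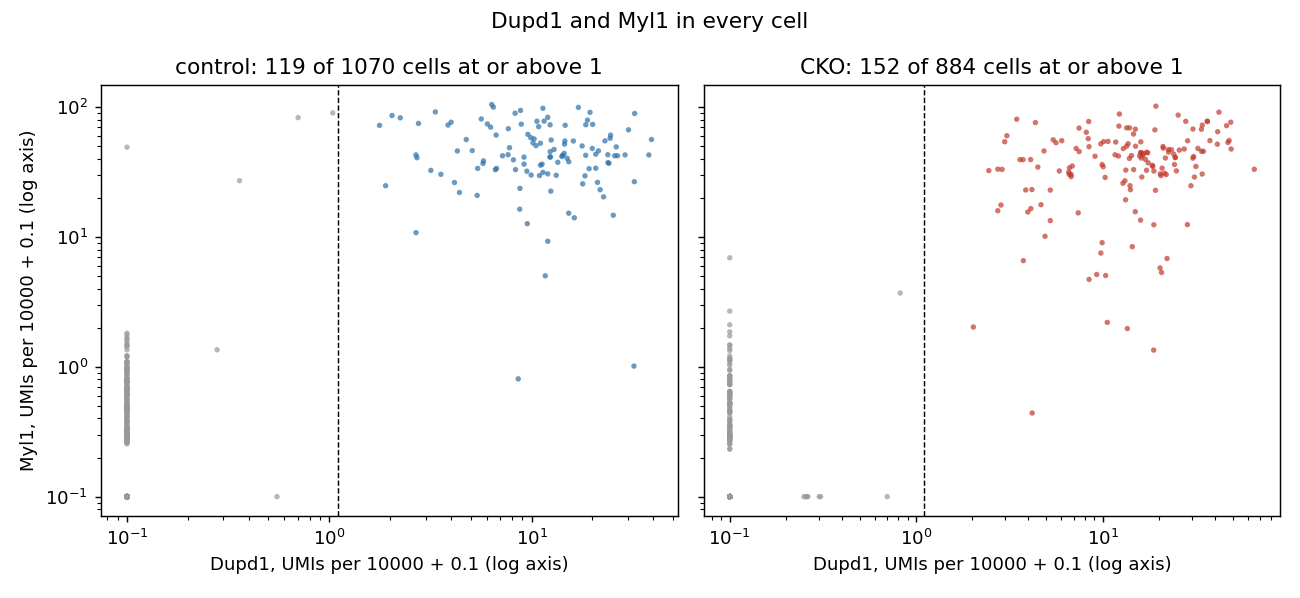
Dupd1 (horizontal) and Myl1 (vertical) in every control and CKO cell, in UMIs per 10000 plus 0.1 on log axes. Each point is 1 cell, coloured cells are at or above the dashed Dupd1 threshold of 1, and the 152 CKO members form a group apart from the 724 cells without Dupd1.

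Every CKO member had at least 1 of the other 3 given markers at 1 or more: 6 had 1, 69 had 2 and 77 had all 3. Of the 724 CKO cells without Dupd1, 710 had none of the 3 and 14 had 1. In control type II neurons 2, 39 and 78 cells had 1, 2 and 3 of these markers. Outside the class in control, 3 of the 5 cells with Dupd1 under the threshold and 1 of the 946 without Dupd1 had at least 2 of them.

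A pair of CKO members also carried type I RNA at high levels. One, in stretch 3, held 71081 UMIs with Calb2 at 201 per 10000, Calb1 at 2.67 and Runx1 at 1.13, beside Dupd1 at 3.66 and Myl1 at 6.47. The other, in stretch 1, held 72765 UMIs with Calb2 at 55.2, Calb1 at 3.57, Lypd1 at 7.83 and Runx1 at 2.61, beside Dupd1 at 4.81 and Myl1 at 10.0. The next deepest member held 42300 UMIs. They stayed in the class because the rule takes Dupd1 alone, and the genes of which they hold a large share are also given without them.

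The promoter windows of 4 markers are shown because these genes set the class apart while Runx1 RNA is nearly missing from it. Windows run from 250 bases before to 50 bases after the start of transcription (RefSeq, GRCm38.p6), each read on its gene's own strand. The letters TGTGGT, the core that RUNX proteins bind, were searched on both strands (ACCACA on the other) and are set in capitals.

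Dupd1, chr14:21714527-21714826, minus strand: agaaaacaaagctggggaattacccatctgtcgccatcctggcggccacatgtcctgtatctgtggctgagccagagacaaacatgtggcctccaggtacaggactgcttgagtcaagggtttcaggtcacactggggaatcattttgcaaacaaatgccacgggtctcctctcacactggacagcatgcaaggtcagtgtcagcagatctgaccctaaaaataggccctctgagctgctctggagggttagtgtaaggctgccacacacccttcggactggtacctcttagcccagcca
Myl1, chr1:66945007-66945306, minus strand: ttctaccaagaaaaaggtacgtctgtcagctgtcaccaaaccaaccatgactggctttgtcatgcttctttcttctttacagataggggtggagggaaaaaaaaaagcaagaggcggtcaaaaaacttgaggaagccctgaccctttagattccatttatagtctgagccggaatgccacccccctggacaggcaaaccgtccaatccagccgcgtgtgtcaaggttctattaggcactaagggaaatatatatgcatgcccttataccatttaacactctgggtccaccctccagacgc
Th, chr7:142899946-142900245, minus strand: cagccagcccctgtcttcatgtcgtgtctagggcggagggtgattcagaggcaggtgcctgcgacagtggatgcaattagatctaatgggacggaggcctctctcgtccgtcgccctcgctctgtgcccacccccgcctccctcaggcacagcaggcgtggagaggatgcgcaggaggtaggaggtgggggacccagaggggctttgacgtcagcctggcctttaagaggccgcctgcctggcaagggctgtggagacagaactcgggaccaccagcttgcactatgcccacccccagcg
Cilp, chr9:65264930-65265229, plus strand: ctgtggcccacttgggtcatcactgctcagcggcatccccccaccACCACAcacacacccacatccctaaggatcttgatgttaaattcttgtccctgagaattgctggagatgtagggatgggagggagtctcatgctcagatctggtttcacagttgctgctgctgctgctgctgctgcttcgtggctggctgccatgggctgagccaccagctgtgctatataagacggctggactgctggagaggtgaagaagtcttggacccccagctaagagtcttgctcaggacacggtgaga

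The RUNX letters were found in 1 of these 4 windows, that of Cilp, and in 16.8% of all 32851 windows (5506). Cilp is not among the markers given with the rule. The window of Plk5, which is among them, is not shown and held no RUNX letters. The 1 of 4 thus depends on which markers are shown. The 11 type II markers at or above a mean of 0.2 and the 15 genes highest in the class over cells without Dupd1 make 20 different genes. Windows on 1 chromosome were left out for these genes, but not from the 32851. After this, 17 of the 20 genes had a window. These genes had 19 windows, since a gene can have more than 1. RUNX letters lay in the windows of 3 of the 17 genes (Cilp, Rph3a and Kcnc4), which is 4 of the 19 windows. The letters AGATAA, bound by GATA factors (TTATCT on the other strand), lay in those of 2 genes (Calca and Rph3a). This is 2 of the 19 windows, against 11.2% of all windows. A match is a description of the letters and not a binding site.

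Myl1, a myosin light chain of fast muscle, was the most abundant of the class markers. CKO stretches 1, 3 and 4 averaged 43.5, 37.0 and 41.0 UMIs per 10000, and control stretches 2 and 5 averaged 46.6 and 50.5. The CKO stretches all lay below both control stretches. The CKO pool averaged 40.1 and the control pool 48.2 (log2 -0.26), with a ratio of UMI rates of 0.805 (0.787 to 0.823).

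Th, the enzyme that starts catecholamine synthesis, was at 3.18, 5.18 and 2.28 in the CKO stretches and 5.33 and 4.71 in the control stretches. Stretch 3 lay between the control values and the other CKO stretches below them. The pool means were 3.98 and 5.09 (log2 -0.35). Th UMIs were present in 75.0% of the CKO members against 81.5% of control type II neurons, and in 68.4% and 73.9% when each cell was thinned to 10000 UMIs.

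Plk5, a polo-like kinase found in neurons, averaged 3.38, 3.32 and 4.44 in the CKO stretches and 4.82 and 4.33 in the control stretches, so stretch 4 overlapped control. Its pool means were 3.51 and 4.63 (log2 -0.39). Dupd1 itself, which chose the cells, averaged 20.3, 14.1 and 16.8 in the CKO stretches and 13.8 and 11.9 in the control stretches. Its higher mean in CKO is a description of the cells that the rule picked.

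Ngfr, Gata3, Cilp and Hspb1 lay within 1.5-fold of control. The neurotrophin receptor Ngfr averaged 8.06 in CKO and 8.95 in control, and the transcription factor Gata3, needed for auditory neurons, 8.38 and 8.99. The matrix protein gene Cilp averaged 2.81 and 3.53, and the small heat shock protein gene Hspb1 10.2 and 9.96. Etv4, Smad3 and Trim54, also on the type II list, were nearly absent from type II neurons of both genotypes. Their means were 0, 0.00303 and 0.00432 in the CKO members and 0.00682, 0 and 0.01004 in control.

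**Figure D2:**
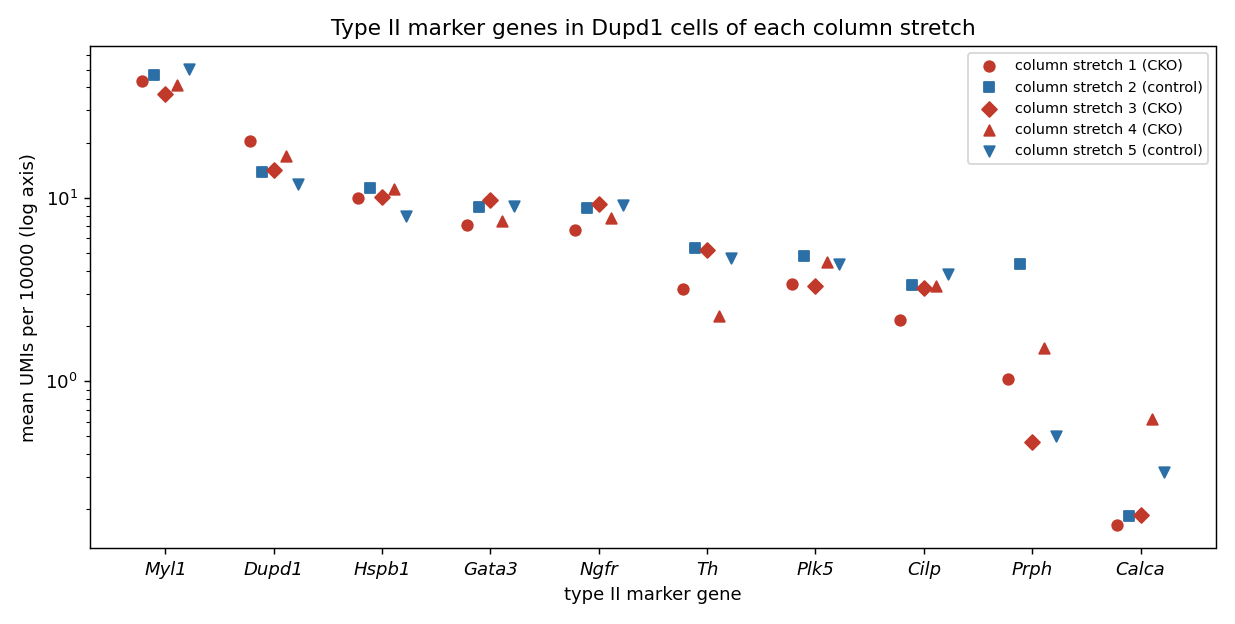
Mean UMIs per 10000 (log axis) of 10 type II marker genes in the Dupd1 cells of each column stretch, 3 CKO (red) and 2 control (blue). Myl1 lies between 37.0 and 50.5 in every stretch, while Prph runs from 0.467 to 4.35 and control stretch 2 stands above the others.

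Of the 14 type II list genes, the 11 that reached a mean of 0.2 in either type II pool were at least 2-fold higher in CKO type II neurons than in CKO cells without Dupd1. They include Dupd1, which chose the cells, and they passed the minimum through the class itself, so the count is a description. Over all genes at that minimum the share was 10.9%. Trim54 and Smad3 were higher outside the class, at 0.211 and 0.0305 in CKO cells without Dupd1. The mean of the type II list summed to 106 UMIs per 10000 in CKO members and 118 in control, against 2.39 and 3.62 in cells without Dupd1.

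Runx1, the targeted gene, was nearly absent from type II neurons of both genotypes. A Runx1 UMI was found in 4 of 152 CKO members (2.63%, 0.722 to 6.60) and 2 of 119 control type II neurons (1.68%, 0.204 to 5.94). In cells without Dupd1 the share was 89.1% in CKO and 83.4% in control, and after thinning the 4 shares were 1.32%, 0.840%, 71.1% and 61.7%. The UMI sum was 29 in CKO members and 2 in control type II neurons. The pair of members with type I RNA held 27 of the 29, and the other 150 members held 2 (mean 0.00553, against 0.00548 in control). The assay reads the 3' end of RNA, and the mean in cells without Dupd1 was 2.01 in CKO and 1.39 in control, so the deletion cannot be checked from these counts.

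Of the other Runt-domain genes, Runx2, known from bone, was seen in 35 of 152 CKO members (23.0%, 16.6 to 30.5) and 17 of 119 control type II neurons (14.3%, 8.55 to 21.9). Cells without Dupd1 had it in 0 of 724 cases in CKO and 1 of 946 in control, although those cells were deeper. A count of 0 among 724 cells has an exact upper bound of 0.508% for cells with a UMI (3 counts would be 0.414%), which does not limit cells that express the gene. After thinning, 9.21% of CKO and 10.1% of control type II neurons had a Runx2 UMI. Cbfb, the partner that RUNX proteins need to bind DNA, averaged 1.68 in CKO and 1.81 in control type II neurons, and 0.256 in CKO cells without Dupd1.

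Several markers of the type I classes were low, but not all. Calb1, the calbindin of type Ib, had a UMI in 7 of 152 CKO members (4.61%) and 1 of 119 control cells (0.840%), and in 5 of the 150 members without the pair carrying type I RNA. Lypd1, of type Ic, had one in 3 (1.97%) and 10 (8.40%), and in 2 of the 150. Lrrc52 had no UMI in either pool, and Pou4f1 was seen in 1 and 2 cells, and in 0 of the 150. The type Ia marker B3gat1 was seen in 5 cells of each pool and in 3 of the 150, whereas 86.7% of CKO and 63.5% of control cells without Dupd1 had it. Free RNA in droplets can give such shares, and its part was not tested. The type Ia list also holds Pcdh20 and Rxrg, which averaged 1.995 and 0.628 in CKO members and 0.259 and 0.286 in CKO cells without Dupd1. Both thus averaged higher in the class. Cells without Dupd1 were not split into types, so whether either gene marks type Ia among them was not tested. Grm8, on the type Ic list, was seen in similar shares of cells in and outside the class. It had a UMI in 27.0% of CKO and 32.8% of control type II neurons, and in 25.3% and 32.1% of cells without Dupd1. Its mean was 0.133 in CKO members and 0.204 in CKO cells without Dupd1.

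The class was distinct from other CKO neurons by many genes. Of 1946 genes with a CKO type II mean of 1 or more, 133 were at least 4-fold higher than in CKO cells without Dupd1, and 123 of these also in control. In the other direction 115 of 1929 genes were at least 4-fold lower, 108 of them also in control. The cells were chosen by Dupd1, so these counts are a description. The highest genes beside Dupd1, Myl1, Th and Plk5 were Hspb1 (10.2 against 0.0113 UMIs per 10000), the calcium-binding S100a13 (11.6 against 0.126) and rabphilin (Rph3a, 19.4 against 0.344), a vesicle protein. The scaffold gene Slc9a3r1 (5.08 against 0.0359), the retinoic acid binding protein gene Crabp1 (3.43 against 0.00111) and the potassium channel gene Kcnc4 (3.09 against 0.00643) followed. The BMP antagonist noggin (Nog) averaged 2.96 against 0.00403. Against control their log2 values were -0.06 for S100a13, -0.07 for Rph3a, -0.01 for Slc9a3r1, -0.38 for Crabp1 and -0.20 for Kcnc4. Crabp1 lay at the edge of the central 95% of genes and averaged 4.97, 1.99 and 4.01 in the CKO stretches against 4.54 and 4.39 in the control stretches.

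Genes high in CKO cells without Dupd1 lay far lower in the class. Thy1, a neuronal surface protein, averaged 0.0856 in CKO members and 7.41 in CKO cells without Dupd1. In the same order the calcium sensor gene Syt2 averaged 0.0183 and 3.44, and the vesicular glutamate transporter gene Slc17a7 0.484 (0.419 without the pair carrying type I RNA) and 7.90. The second vesicular glutamate transporter gene, Slc17a6, had UMIs in 98.7% of the CKO members against 98.3% of control type II neurons, at 2.78 and 2.86. Slc17a8, which encodes the transporter of hair cells, had no UMI in either pool. Over the 133 class-high genes the median log2 value of CKO against control type II neurons was -0.05, with 1 gene at least 1.5-fold higher and 1 lower. Over the 115 class-low genes it was 0.05, with 5 higher and 1 lower. Both sets were chosen by CKO values. A class-high gene that was lower in CKO, or a class-low gene that was higher, could thus be left out. The medians and counts against control are a description of the genes that remained. Of the 133 and 115 genes, 133 and 78 reached a mean of 0.2 in either type II pool. Of the 78, 4 were higher and 1 lower, where all genes at that mean gave 0.592% and 0.355%. Without the pair carrying type I RNA and the 1 control cell with Lypd1, the class-low genes had a median of -0.01, with 2 higher and 1 lower, and the class-high genes one of -0.04, with 1 and 1.

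Between genotypes, few genes differed by size. At a mean of 0.5 or more in either pool, 6 of 3816 genes (0.157%) were at least 2-fold higher in CKO than in control type II neurons, and 1 (0.0262%) was at least 2-fold lower. The ratio is log2((CKO mean + 0.1)/(control mean + 0.1)), which understates the gap of low genes. Its median over the 3816 genes was -0.02, and the central 95% of genes lay from -0.38 to 0.38. In cells without Dupd1, 6 of 3733 genes (0.161%) were at least 2-fold higher and 5 (0.134%) lower. Leaving out 1 stretch at a time moved the counts in type II neurons to between 2 and 14 higher and between 0 and 8 lower, so neither count is stable against the stretches. The lowest counts came without control stretch 2 (2 higher, 0 lower), the most higher genes without control stretch 5 (14 higher, 7 lower) and the most lower genes without CKO stretch 3 (9 higher, 8 lower). Without CKO stretch 1 they were 3 and 4.

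**Figure D3:**
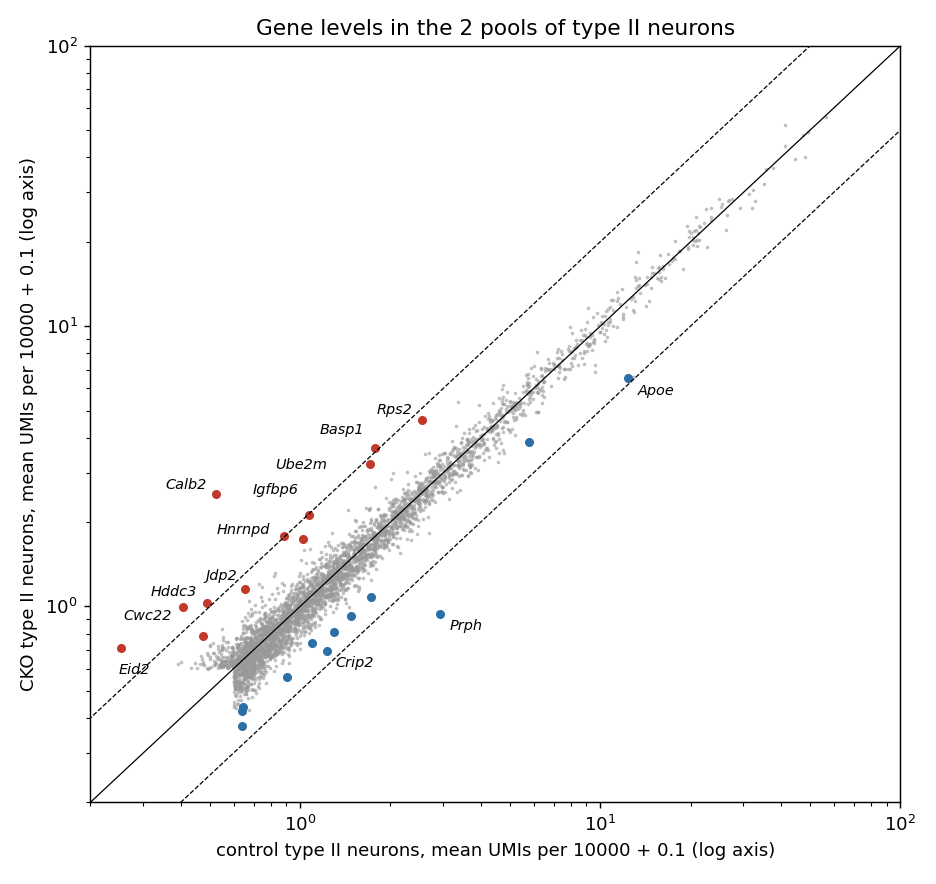
Mean UMIs per 10000 plus 0.1 in control (horizontal) and CKO (vertical) type II neurons on log axes, 1 point per gene with a mean of 0.5 or more. Malat1 lies beyond the axes. The solid line is equality and dashed lines 2-fold, and the 12 highest (red) and 12 lowest (blue) genes by ratio are marked, with Calb2 and Prph farthest from the line.

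The 12 genes with the highest and the 12 with the lowest ratio are described next. The ratio chose them, so their values are no evidence of a genotype difference. Over all genes at this level 8.25% had all 3 CKO stretches above both control stretches and 12.6% had all 3 below. Of the 12 highest genes, 8 had CKO stretches that all lay above control, and of the 12 lowest, 7 had CKO stretches that all lay below.

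Calb2, the calretinin of type Ia, led the higher genes. CKO stretches 1, 3 and 4 averaged 2.19, 3.33 and 0.155, and control stretches 2 and 5 averaged 0.427 and 0.420. Stretch 4 was the lowest of all. The pool means were 2.41 and 0.424 (log2 2.26), but the medians over cells were 0.556 and 0.307. The pair with type I RNA held 1829 of the 2124 Calb2 UMIs. Without them the other 150 members averaged 0.738. Without these and the 1 control cell with Lypd1 the log2 value was 0.68, and with the class set by at least 2 of Myl1, Th and Plk5 it was 0.49.

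Calb2 in the other cells of a stretch differed between stretches as well. Cells without Dupd1 averaged 168, 182 and 59.1 in the CKO stretches and 58.0 and 116 in the control stretches. Without the members with type I RNA, the type II mean was 0.749%, 0.278% and 0.263% of those values in CKO and 0.732% and 0.363% in control. Whether free RNA gives these UMIs was not tested.

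Basp1, a membrane protein of growing axon tips, averaged 4.82, 2.93 and 2.36 in the CKO stretches and 1.48 and 1.98 in the control stretches. The CKO stretches all lay above control. The pool means were 3.56 and 1.68 (log2 1.04), with a ratio of UMI rates of 2.10 (1.90 to 2.33) and a UMI in 98.7% and 98.3% of cells. In cells without Dupd1, Basp1 was slightly lower in CKO (0.576 against 0.695, log2 -0.23). The value was 0.70 without stretch 1 and 0.81 without stretch 2, both under 2-fold.

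Eid2, a regulator of differentiation, averaged 0.734, 0.570 and 0.406 in the CKO stretches and 0.0821 and 0.262 in the control stretches, without overlap. Its pool means were 0.608 and 0.153 (log2 1.48), and in cells without Dupd1 it was higher in CKO as well (log2 0.82). The log2 value was 0.97 without stretch 2 and 1.96 without stretch 5. Hnrnpd, an RNA-binding protein gene, averaged 2.01, 1.46 and 1.54 against 0.660 and 0.977, also without overlap. Its pool means were 1.68 and 0.785 (log2 1.01), and the value was 0.84 without stretch 1 and 0.73 without stretch 2. Hddc3, a nucleotide hydrolase gene, averaged 0.885, 1.06 and 0.657 against 0.218 and 0.654, with stretches 4 and 5 nearly equal. Its log2 value was 1.07, and 0.45 without stretch 2, 0.91 without stretch 3 and 1.69 without stretch 5.

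Cwc22, a splicing factor gene, stood at 1.71, 0.380 and 0.428 in the CKO stretches and at 0.210 and 0.457 in the control stretches. The pool log2 value of 1.29 rested on stretch 1, since it was 0.27 without it, and it was 0.83 without stretch 2 and 1.82 without stretch 3. The gene has near-identical copies in mouse, so its counts are uncertain. The same holds for Rps2, a ribosomal protein gene with many processed copies, which averaged 5.90, 2.96 and 5.97 against 2.45 and 2.44 (log2 0.86, and 1.23 in cells without Dupd1). The control stretches differed in spread despite their equal means. A Rps2 UMI was seen in 100% of cells in stretch 2 (median 2.39) and in 44.7% in stretch 5 (median 0).

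The rest of the higher genes were Igfbp6, Ube2m, Jdp2, H1fx and Id4, with log2 values from 0.73 to 0.98. Jdp2, a repressor of AP-1, averaged 1.39, 0.790 and 1.04 against 0.502 and 0.633. Id4, an inhibitor of helix-loop-helix factors, averaged 0.655, 0.722 and 0.635 against 0.339 and 0.426. Neither overlapped. Of the 12 genes 10 were also higher in CKO among cells without Dupd1, 4 of them by at least 1.5-fold, while Basp1 and Igfbp6 were not. Of all genes with a mean of 0.2 or more in those cells, which leaves out Id4, 38.9% were higher in CKO and 0.442% by at least 1.5-fold.

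Prph, the type II filament, was the 1 gene at least 2-fold lower. It averaged 1.02, 0.467 and 1.51 in the CKO stretches and 4.35 and 0.502 in the control stretches. Control stretch 5 was as low as CKO stretch 3, and control stretch 2 stood alone. A Prph UMI was seen in 53.4%, 29.6% and 47.8% of cells in the CKO stretches and in 79.2% and 36.2% in the control stretches. The pool means were 0.838 and 2.83 (log2 -1.64). Without stretch 2 the direction turned (log2 0.64), and without stretch 5 the value was -2.25.

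Th and Prph, the 2 classical type II proteins, were each seen in part of the cells. After thinning to 10000 UMIs, 28 of 152 CKO members had both, 76 had Th alone, 15 had Prph alone and 33 had neither. In control type II neurons the counts were 46, 42, 13 and 18 of 119. Stretch 2, high in Prph, holds 72 of the 119 control cells.

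Of the 12 lowest genes 5 (Prph, Apoe, Fgd2, Mmp14 and Qpct) were at least 4-fold higher in CKO type II neurons than in CKO cells without Dupd1, on the scale with the pseudocount. This held for 1 of the 12 highest genes. Over all genes it was counted only at a CKO type II mean of 1 or more, where 133 of 1946 genes were at least 4-fold higher. Of these 133 genes 1 was at least 1.5-fold lower in CKO than in control. That minimum leaves out Prph, Fgd2, Mmp14 and Qpct, whose CKO means were 0.838, 0.711, 0.824 and 0.983. Whether the 5 stand for class genes in general therefore cannot be read from the 133. Tmprss3, a serine protease gene known from hereditary deafness, averaged 0.181, 0.344 and 0.291 in the CKO stretches and 0.594 and 0.463 in the control stretches, without overlap (log2 -0.78). Tmprss3 had no UMI in CKO cells without Dupd1. Qpct, which encodes an enzyme that modifies peptide ends, averaged 0.686, 1.12 and 1.30 against 1.36 and 2.01 (log2 -0.67). Fgd2, an activator of Cdc42, averaged 0.707, 0.693 and 0.781 against 1.48 and 0.761 (log2 -0.67, and -0.09 without stretch 2). The membrane protease gene Mmp14 averaged 0.681, 0.807 and 1.23 against 1.78 and 0.745 (log2 -0.67), and its direction turned without stretch 2 (0.13).

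The LIM protein gene Crip2 averaged 0.618, 0.629 and 0.430 against 1.38 and 0.743, without overlap (log2 -0.82, and -0.28 without stretch 2). Clu, which encodes the chaperone clusterin, and Cpne4, a copine gene, were lower in the pools (log2 -0.59 and -0.69) but not without stretch 2 (0.32 and 0.19). St8sia5, Cdip1 and Limk2 stood at log2 -0.59, -0.57 and -0.56, each without overlap of the stretches.

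**Figure D4:**
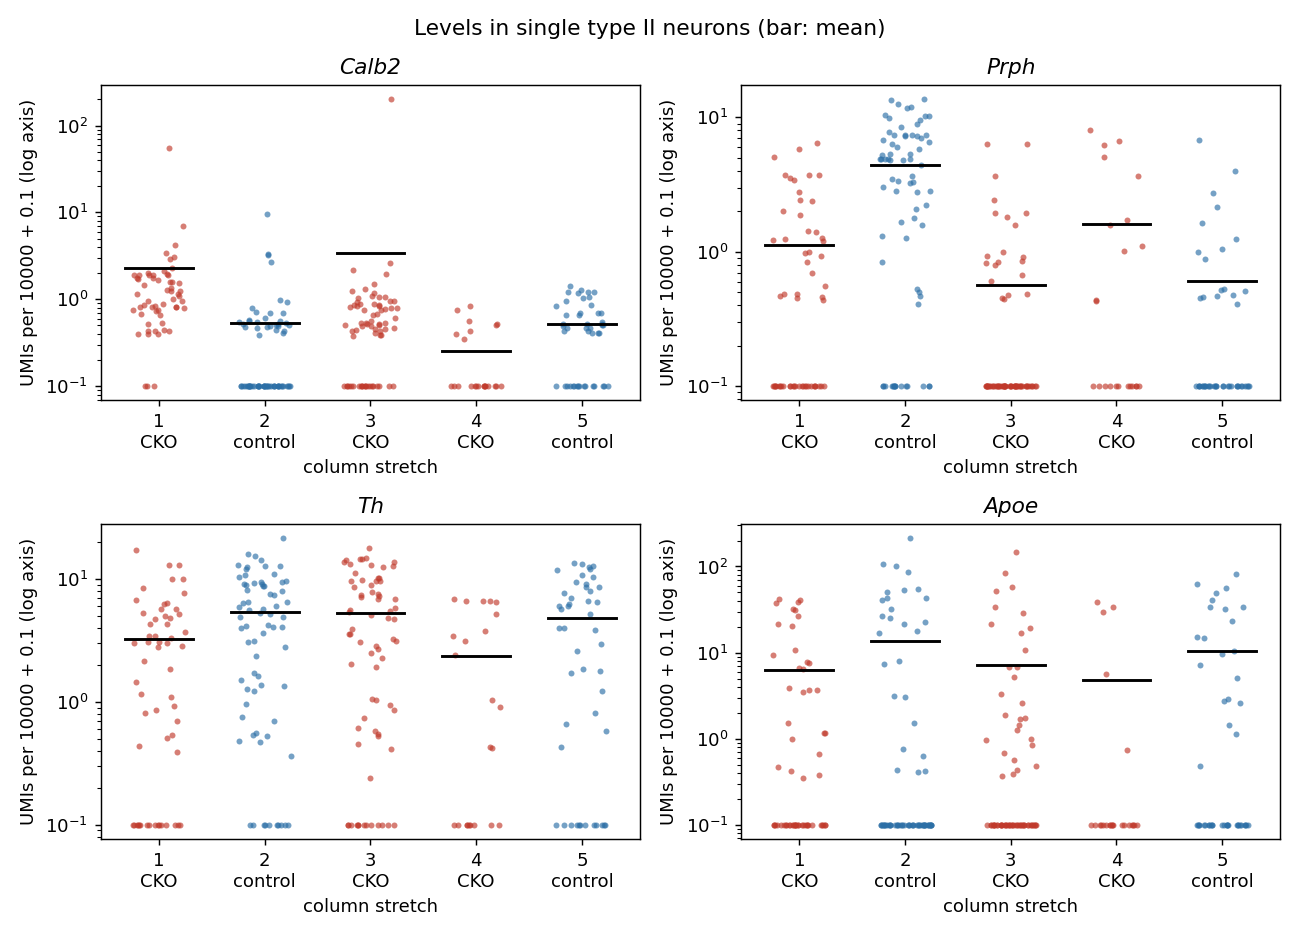
Calb2, Prph, Th and Apoe in each type II neuron, by column stretch, in UMIs per 10000 plus 0.1 on log axes, with CKO cells in red, control cells in blue and bars at the mean. In stretches 1 and 3 of Calb2 a single cell at 55.2 and 201 lies far above the rest, and Prph is high in control stretch 2 alone.

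Apoe, a lipid carrier of satellite glia, and Igfbp6, a growth factor binding protein, followed glial RNA. Apoe averaged 6.18, 7.13 and 4.72 in the CKO stretches and 13.6 and 10.3 in the control stretches (log2 -0.93). The sum of 8 genes of Schwann and satellite glia was 5 or more UMIs per 10000 in 61 CKO members (40.1%) and 47 control type II neurons (39.5%). By stretch this share was 50%, 36.6% and 26.1% in CKO and 36.1% and 44.7% in control. In the 91 CKO and 72 control cells below 5 the Apoe means were 0.0264 and 0.0215, and the log2 values were 0.06 for Apoe and -0.04 for Igfbp6. The myelin genes among the 8 summed to 13.0 in CKO and 12.4 in control members, and the satellite genes to 8.92 and 15.3.

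Glial RNA differed in kind between the classes. In CKO cells without Dupd1 the myelin genes summed to 20.6 and the satellite genes to 0.372, and in control cells without Dupd1 the satellite genes summed to 0.270. Satellite glial RNA was thus higher with type II neurons in both genotypes. In the glia-poor cells Myl1 averaged 42.2 in CKO and 50.7 in control, Th 4.41 and 5.55, Plk5 3.60 and 4.98, and Prph 0.793 and 2.91. Calb2 stood at 0.681 and 0.534 there (log2 0.30). Other non-neuronal lists were low: Cd74 was the 1 macrophage list gene at a mean of 0.2 or more (0.717 and 0.940), and Col1a2 the 1 fibroblast and vascular list gene (0.830 and 0.737).

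The gene lists were read at a mean of 0.2 or more and at 1.5-fold on the ratio with the pseudocount. A low gene, such as Kcnq3 below, can stay under that line although its 2 means are more than 1.5-fold apart. There 40 of 6760 genes (0.592%) were higher in CKO and 24 (0.355%) lower, with a median log2 of -0.03. Of the 11 type II markers at this level, 0 were higher and 1 (Prph) was lower, and the median was -0.21. The list holds the genes of the rule.

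With shares this low over all genes, a list of a few genes with none past 1.5-fold is not set apart from other genes. Of 18 synaptic release genes none passed 1.5-fold (median -0.09), with Slc17a7 lowest at 0.484 against 0.670 (log2 -0.40, at the edge of the central 95% of all genes) and the active zone gene Bsn at 0.325 against 0.438. The pair carrying type I RNA held 77 of the 244 Slc17a7 UMIs of CKO members. Without the pair the CKO mean of Slc17a7 was 0.419, further below control. Of 9 glutamate receptor genes none passed (median -0.12). Among these Grik3 (0.624 and 0.739) and Grin3a (0.585 and 0.694) were at 0.000333 and 0.00378 in CKO cells without Dupd1. Of 12 purinergic receptor genes measured, through which type II neurons can sense ATP, none reached a mean of 0.2 in either pool. Of 5 catecholamine genes at this level none passed, and Ddc, which turns L-DOPA into dopamine, had 1 UMI in CKO members and 0 in control. The peptide gene Npy averaged 1.89 and 1.61, with a UMI in 41.4% and 43.7% of cells.

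Channel genes at or above a mean of 0.2 were counted in the same way. Of 16 potassium channel genes none passed (median -0.11), and the widest, both outside the central 95% of all genes (-0.40 to 0.38), were Kcnq3 (0.334 and 0.202, log2 0.52) and the subunit Kcnab2 (1.08 and 1.47, log2 -0.41). None of 9 sodium and HCN channel genes (median 0.03) and none of 8 calcium channel genes (median 0.06) passed. Scn9a, a sodium channel gene of pain neurons, averaged 1.36 and 1.58 in type II neurons and 0.00947 in CKO cells without Dupd1. Among 13 calcium buffer and sensor genes Calb2 and S100b were higher (median 0.14), S100b at 0.340 against 0.192.

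None of 15 sensory transcription factor genes (median 0.04), 7 neurotrophin and GDNF receptor genes (-0.12), 16 axon guidance genes (0.02) or 5 cadherin genes (-0.16) passed. The corepressor gene Tle4 averaged 4.19 and 3.56, and the guidance receptor gene Robo2 0.197 and 0.292. Among 8 genes of axon injury and growth only Basp1 was higher (median -0.07), while Gap43, another growth cone gene, stood at 0.636 and 0.708. Of 8 immediate early and stress genes none passed (median -0.07). None of 8 genes shared by type I classes (median 0.11), 8 neuronal identity genes (0.02), 8 genes of granins and peptide processing (-0.01) or 9 muscle-associated genes (0.03) passed. Among 7 intermediate filament genes Prph alone was lower (median 0.11), with Nefh at 28.4 and 24.7 and Nefl at 24.3 and 20.8. Among 15 glial genes Ptgds and S100b were higher and Apoe lower (median 0.08).

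Ribosomal protein genes took 9.91% of UMIs in CKO and 9.82% in control type II neurons, with 1 of 78 (Rps2) higher and a median of 0.03. Of these genes 42 of 78 were at least 2-fold above CKO cells without Dupd1, beside 10.9% of all genes at that mean. None of 81 genes of oxidative phosphorylation passed (median 0.04), at 3.72% and 3.62% of UMIs.

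**Figure D5:**
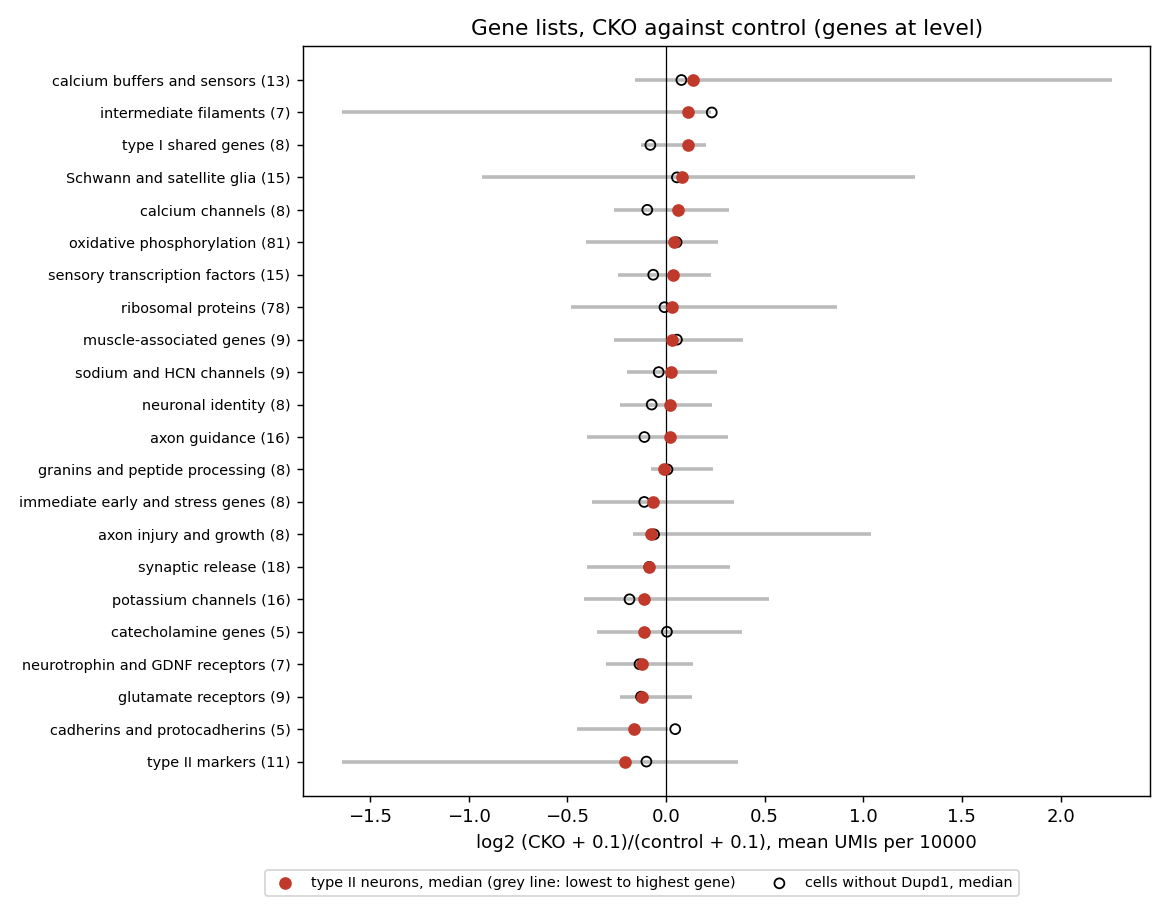
Median log2 ratio of CKO to control per gene list (horizontal axis) in type II neurons (red) and in cells without Dupd1 (open), for lists with 5 or more genes at a mean of 0.2, with the number of genes in parentheses and grey lines from the lowest to the highest gene. List medians in type II neurons lie between -0.21 and 0.14, and the long lines come from Prph, Calb2, Ptgds and Basp1.

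Members differed among themselves in a limited set of genes. The variance of UMI counts over the variance that Poisson counting gives had a median of 1.21 over 3496 genes in the 152 members, and was 2 or more in 403. Calb2 led at 389, with 6.01 in control type II neurons. Without the pair carrying type I RNA the median was 1.19 and 343 of 3494 genes reached 2. Of the first 40 genes of that order 14 were at least 4-fold higher in members with glial RNA, with Apoe at 105.

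Among the 26 genes of those 40 not tied to glial RNA, Malat1, a nuclear long RNA, led at 326 and ran up to 1870 UMIs per 10000. Myl1 reached 28.8, Dupd1 22.1, Fmod 23.6, Npy 22.0, Crabp1 21.4 and Th 13.0. Several of these were carried by part of the cells. Fmod, a matrix proteoglycan, had a UMI in 36.7% of the 150 members with a highest cell at 25.2, Npy in 42.0% with 24.3, Tnmd, a tendon protein, in 54.7% with 11.5, and Crabp1 in 74.0% with 27.3. In all 152 members Fmod averaged 1.73 against 2.58 in control, and Tnmd 2.13 against 1.59.

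All 210 pairs of 21 genes, chosen after their spread was seen, were correlated by rank over the 150 members at 10000 UMIs each. Dbi, Tmsb4x, Kcna1, Mt3 and Chchd10 went together, with Spearman's rho from 0.546 to 0.705. Dbi, Tmsb4x, Kcna1 and Mt3 were at least 4-fold higher in members with glial RNA. Of pairs outside that group, Th with Dupd1 had the highest value, 0.324 (0.297, 0.398 and 0.431 in stretches 1, 3 and 4). Counts are sparse and Dupd1 chose the cells, so this is a description.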

How the data were processed

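Single-cell RNA of 2 control and 3 CKO samples was read from 1 deposited matrix of 14715 genes by 1954 cells. The authors deposited natural log values, which the values themselves show to be ln(1 + 100000 × UMIs / cell total): they gave whole UMI counts for 100% of entries at a tolerance of 0.01. Cell Ranger, Seurat and the build mm10 are named, without versions, in the submitters' processing notes. A second deposited table gives each cell's genotype and was joined by position. How the authors chose cells, and whether doublets were removed, is not given in the sources used here, and no doublet caller was run.

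Levels are UMIs per 10000 averaged over cells, and ratios use a pseudocount of 0.1. Cells held 10379 to 100856 UMIs. No test was possible over samples. Members, thresholds and the 33 gene lists were chosen with earlier results of these data known. Column stretches were noticed in the data. The text names Runx1, marker lists, the 12 genes each way with the largest ratio (without predicted and sex-linked genes), up to 4 genes per other list and the 15 genes highest over CKO cells without Dupd1 at a mean of 2 or more. Genes outside that rule (Fmod, Tnmd, Malat1, Dbi, Tmsb4x, Mt3, Kcna1, Chchd10, Slc17a6, Slc17a8, Ddc, Thy1 and Syt2) were picked after their values were seen. The 8 glial genes are markers of Schwann cells (Mbp, Pmp22 and Mag among them) and satellite glia (Apoe, Fabp7 and Ednrb). Some genes that the rule names are not reported here. The alternatives tried were other Dupd1 thresholds, markers, pseudocounts, minimum means and scalings, glia-poor cells and leaving out a stretch. The scripts (Python 3.11.15, numpy 2.4.6, pandas 2.3.3, scipy 1.17.1, matplotlib 3.10.9) were tested on simulated data.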

Additional observations from a re-analysis of the deposited data

How the results depend on the processing

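Against the main 6 higher and 1 lower genes at 2-fold, the count of higher genes was 1 at a pseudocount of 0.5, 3 at a minimum mean of 1, 10 with no minimum mean and 3 with stretches weighted equally, an alternative chosen after seeing the data. Leaving out 1 stretch gave 2 to 14 higher and 0 to 8 lower genes, with the largest shifts without control stretches 2 and 5 and CKO stretch 3. The count of lower genes stayed at 1 in every alternative run that did not leave out a stretch. Prph turned its direction without stretch 2 (log2 0.64) and was at -2.25 without stretch 5, and the cause was not tested. No paired analysis was possible because the cells carry no sample or replicate number and no test was made. Depth limits single cells of about 27102 UMIs: a gene at 0.2 per 10000 gives under 1 UMI per cell.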
